A study of Mus musculus
Mus spretus with 18 samples.

Results

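The genes examined here encode the p120 catenins and 3 plakophilins, the armadillo-repeat proteins that bind cadherin tails at adherens junctions and desmosomes. The 6 members were taken by gene symbol: Ctnnd1 (p120 catenin), Arvcf, Ctnnd2 (δ-catenin), Pkp4 (p0071), Pkp2 and Pkp3. They are 6 of the 38924 genes with a transcript level, and they hold 92 of the 125200 skipped exon (SE) events in the data. Of these 92 events, 88 had at least 20 junction reads in both libraries of a tissue, or of both fibroblast treatments, and they describe 55 distinct exons.

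At an adherens junction the cytoplasmic tail of a cadherin carries a catenin of the p120 family close to the membrane, where it slows removal of the cadherin from the surface. Further along the tail β-catenin or plakoglobin links the cadherin to α-catenin and actin. In a desmosome, the anchoring junction of epithelia and heart muscle, plakophilins tie desmosomal cadherins and desmoplakin to intermediate filaments. Ctnnd1 transcripts are known to differ at their 5′ end, which sets the start codon used, and to include or skip 3 internal exons called A, B and C.

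RNA-seq libraries of F1 hybrids between female C57BL/6J and male SPRET/EiJ mice were compared, so that both parental alleles of each gene shared one cell. Cerebral cortex, heart, kidney, lung, spleen and liver came from the same 2 female mice aged 8 weeks, and ESC were 2 independent clones. The liver data were made in an earlier study, so for liver the tissue and the study cannot be told apart. Per the study's methods, heart, kidney and cortex had longer reads than spleen, lung and ESC, and the longer reads were trimmed to equal length. Between these sets, tissue and sequencing run type cannot be told apart either. A fibroblast line from the same cross received for 4 h either 0.1 μM pladienolide B, which inhibits the splicing factor SF3B, or DMSO, with 2 libraries each, and the sources used here do not say whether these were separate cultures. In the labels of both liver libraries the strain is spelled C57BL/7J or C57BL/8J, and they were used as F1 samples because the study describes them so.

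Splicing was measured as percent spliced in (PSI), the share of transcripts that include an exon, given here from 0 to 1 and computed from junction reads divided by the effective lengths of both forms. Transcript levels are in TPM, reads per transcript length scaled to one total in every library, which are per length and can be compared between genes. Each tissue library held 46558287 to 129496306 junction reads over all SE events and each fibroblast library 129067054 to 151755602. All 4 markers of a tissue's own cell type were higher in that tissue in each of the 7 tissues. The lung libraries also held cardiomyocyte markers, summed to 987 and 771 TPM against 52060 and 52529 TPM in heart, and the spleen libraries lung epithelial markers, summed to 131 and 90.7 TPM. The ESC clones differed more than other replicates (Pearson r of log2 TPM 0.916, at least 0.976 in the other groups). In bulk samples, fewer cells of a type and less RNA per cell cannot be told apart.

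The first question was where each gene is expressed. Levels across tissues were tested with limma on log2(TPM + 0.1), each tissue against the mean of the other 6, and a gene was called when the Benjamini-Hochberg adjusted p was under 0.05 and the difference at least 1 on the log2 scale. Of the 42 contrasts of a member with a tissue, 26 were called. Each gene had its own pattern, which the plot of levels by library shows.

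**Figure D1:**
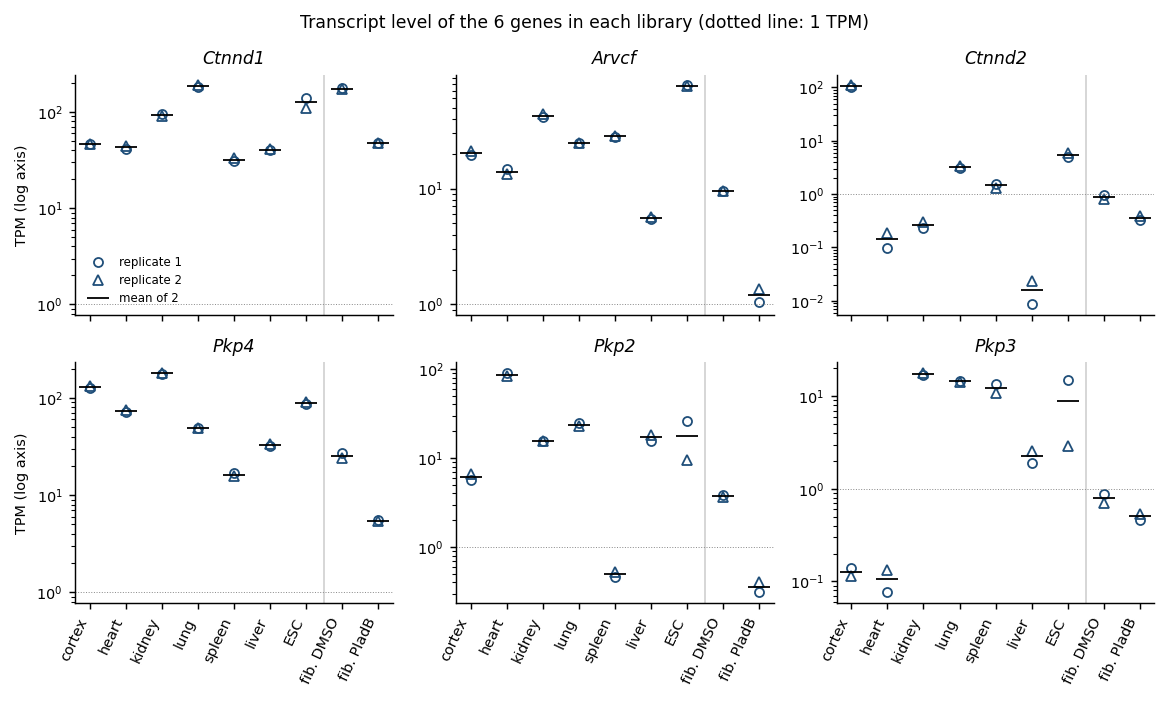
Transcript level of each gene in TPM (log axis, with a range of its own in each panel) in the 7 tissues and in fibroblasts treated with DMSO or pladienolide B (PladB), with both libraries of each group as points and their mean as a line. Ctnnd2 reached 101 and 109 TPM in cortex and stayed below 6.1 TPM elsewhere, Pkp2 was highest in heart, and the 2 ESC libraries differed in Pkp2 and Pkp3.

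Ctnnd1, the founding p120 catenin, was present in every tissue. Its level was 181 and 188 TPM in lung, 140 and 110 in ESC, 94.9 and 89.7 in kidney, 46.3 and 46.0 in cortex, 41.6 and 44.3 in heart, 39.8 and 41.5 in liver, and 31.1 and 32.9 in spleen. No neighbours in this order overlapped, although cortex, heart and liver lay within a few TPM of each other. It was higher in lung by 1.73 ± 0.09 on the log2 scale (SE, adjusted p = 3.32e-07) and in ESC by 1.07 ± 0.09 (adjusted p = 3.88e-06), and lower in spleen (-1.22 ± 0.09, adjusted p = 2.38e-06). In ESC the difference came to 0.44 when libraries were centred on their median gene, and to 0.89 without the first clone, both under the limit of 1.

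Arvcf, a p120 family member that also binds classical cadherins, was highest in ESC, at 77.5 and 76.6 TPM. The level was 41.8 and 43.6 TPM in kidney, 27.9 and 28.7 in spleen, 24.7 and 24.6 in lung, 19.6 and 21.0 in cortex, 14.7 and 13.3 in heart, and 5.44 and 5.69 in liver. The order held without overlap between neighbours. Arvcf was called higher in ESC (2.01 ± 0.07, adjusted p = 1.02e-08) and kidney (1.02 ± 0.07, adjusted p = 2.34e-06), and lower in liver (-2.39 ± 0.07, adjusted p = 3.02e-09). The kidney difference lay at the limit and came to 0.96 with centred libraries.

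Ctnnd2, the neuronal δ-catenin of dendrites and synapses, was the member with the largest range. Cortex held 101 and 109 TPM, ESC 5.05 and 6.01, lung 3.12 and 3.39, spleen 1.58 and 1.33, kidney 0.228 and 0.303, heart 0.0990 and 0.186, and liver 0.00855 and 0.0234. Cortex exceeded the mean of the other tissues by 7.01 ± 0.15 on the log2 scale (adjusted p = 2.13e-10), on a scale that understates changes of low values. It was also called higher in ESC (2.08 ± 0.15) and lung (1.21 ± 0.15, which came to 0.94 with centred libraries and to 0.21 with a pseudocount of 1), and lower in heart, kidney and liver. The 4 neuronal markers were called higher in cortex only, except Slc17a7, which was also called higher in heart and lung.

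Pkp4, which is found at both adherens junctions and desmosomes, led in kidney. It measured 178 and 179 TPM there, 127 and 133 in cortex, 87.5 and 90.4 in ESC, 72.3 and 75.6 in heart, 49.1 and 49.4 in lung, 32.4 and 33.5 in liver, and 16.9 and 15.7 in spleen. These groups did not overlap. The gene was called higher in kidney (1.75 ± 0.07, adjusted p = 4.13e-08) and cortex (1.21 ± 0.07, adjusted p = 1.89e-07), and lower in spleen (-2.28 ± 0.07, adjusted p = 1.12e-08). In liver the difference was -1.10 ± 0.07 (adjusted p = 2.74e-07) but turned to 0.20 when libraries were centred on their median gene, and in cortex it came to 0.80. The median of all genes in liver was itself -1.52.

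Pkp2, the plakophilin of heart muscle desmosomes, measured 89.4 and 82.6 TPM in heart. It was 24.7 and 22.7 TPM in lung, 26.3 and 9.52 in ESC, 15.8 and 18.3 in liver, 15.6 and 15.5 in kidney, 5.70 and 6.59 in cortex, and 0.462 and 0.530 in spleen. The 2 ESC clones spanned the levels of lung, liver and kidney, so ESC has no place of its own in this order. Heart exceeded the other tissues by 3.34 ± 0.28 (adjusted p = 4.53e-06) and spleen lay 5.03 ± 0.28 below them (adjusted p = 3.01e-07). Pkp2 was also called higher in lung (1.18 ± 0.28, adjusted p = 0.00449, 0.90 with centred libraries) and lower in cortex (-1.08 ± 0.28, adjusted p = 0.0057). The part of the cardiomyocyte RNA in the lung libraries in this level was not tested.

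Pkp3, a plakophilin of epithelial desmosomes, was near 0 in cortex (0.140 and 0.113 TPM) and heart (0.0762 and 0.134). Its level was 17.1 and 17.6 TPM in kidney, 14.7 and 14.2 in lung, 13.6 and 10.9 in spleen, 14.9 and 2.89 in ESC, and 1.92 and 2.56 in liver. The ESC clones again lay far apart, with the first at the level of lung and the second near liver, and cortex and heart overlapped. Pkp3 was called higher in kidney (2.96 ± 0.44, adjusted p = 0.000322), lung (2.66 ± 0.44) and spleen (2.37 ± 0.44), and lower in cortex (-4.35 ± 0.44) and heart (-4.54 ± 0.44, adjusted p = 1.25e-05). It was called higher in ESC as well, by 1.35 ± 0.44, but by 0.18 without the first clone. Of 4 markers of epithelium in general, Krt8 measured 540 and 24.3 TPM in the first and second clone, and Krt18 653 and 37.4. Cdh1 measured 625 and 430 TPM in the same order, while Epcam went the other way, with 131 and 223. Their relation to the level of Pkp3 was not tested.

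Over all 21925 genes tested, 35.7% were called higher and 24.9% lower in ESC, 7.97% and 67.3% in liver, 26.6% and 22% in spleen, 25.8% and 14.9% in lung, 16.6% and 18.5% in kidney, 11.6% and 37.4% in heart, and 35.4% and 20.1% in cortex. Against this background 4 members were higher and 0 lower in ESC, 0 and 3 in liver, 1 and 3 in spleen, 4 and 0 in lung, 3 and 1 in kidney, 1 and 2 in heart, and 2 and 2 in cortex. TPM sum to the same total in every library, so each level is relative to the rest of its library. The median difference of all genes was 0.34 in ESC, -1.52 in liver, 0.17 in spleen, 0.17 in lung, -0.13 in kidney, -0.71 in heart and 0.38 in cortex. With libraries centred on their median gene, an alternative chosen after seeing the data, liver called 16.6% of all genes higher and 25.8% lower, heart 16.5% and 23.2%, ESC 24.1% and 35.4%, cortex 28.5% and 27.7%. The centred libraries called 21 of the 42 contrasts of the members, 19 of them among the 26 named above. The other 2 were Ctnnd1 lower in cortex (-1.01, against -0.60 as deposited) and Pkp2 higher in liver (1.91, against 0.62).

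The partners of these proteins were read from lists of cadherins and catenins and of desmosome genes. Of 11 cadherins and catenins of adherens junctions, 6 were called higher and 2 lower in lung, and 6 and 3 in ESC. The counts were 5 and 5 in cortex, 5 and 4 in heart, 3 and 2 in kidney, 2 and 7 in spleen, and 1 and 9 in liver. Over all genes the shares were 25.8% and 14.9% in lung, 35.7% and 24.9% in ESC, and 7.97% and 67.3% in liver. Those of the other tissues are given above. With centred libraries the counts of the list were 6 and 3 in lung, 3 and 4 in ESC, 4 and 5 in cortex and 5 and 2 in heart. They were 3 and 3 in kidney, 2 and 5 in liver, and 2 and 8 in spleen. E-cadherin (Cdh1), the epithelial cadherin, measured 194 and 201 TPM in lung, 202 and 190 in kidney, 625 and 430 in ESC, and 0.0326 and 0.0518 in heart. Of the desmosome partners, plakoglobin (Jup), desmoplakin (Dsp), Dsg2 and Dsc2 passed the filter on low values and Pkp1 did not. The 4 that passed were called higher in heart and lower in cortex, also with centred libraries. As deposited, Dsc2 and Dsg2 were also called higher in liver, Jup in lung and Dsg2 in ESC. Those called lower were Jup in liver, Dsc2 and Dsg2 in lung, and Jup, Dsg2 and Dsp in spleen. Jup measured 220 and 227 TPM in lung against 147 and 138 in heart. Dsp, which links plakophilins to intermediate filaments, was 298 and 316 TPM in heart and 1.22 and 1.81 TPM in cortex.

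The genes whose levels over the 14 tissue libraries were most like those of a member were found by Pearson r of log2(TPM + 0.1) among 21925 genes. They were Pof1b (r = 0.983) and C330013F16Rik (0.961) for Ctnnd1, Hus1 (0.992) and Ppfia1 (0.987) for Arvcf, and Kcnh3 (0.989) and Sept7 (0.988) for Ctnnd2. For Pkp4 they were Tln2 (0.975) and Atp1b1 (0.957), for Pkp2 Dsp (0.922) and Ccdc141 (0.907), and for Pkp3 Mvb12a (0.966) and 1600016N20Rik (0.963). The libraries of a tissue share its cells, so these values describe 7 tissues. An r takes no account of the size of the changes. Mvb12a lay between 34.7 and 82.2 TPM, while Pof1b (0.00319 to 7.43 TPM) and C330013F16Rik (0 to 4.43 TPM) came near 0. Members were less alike among themselves, with Ctnnd1 and Arvcf the closest pair at 0.553.

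The second question was which exons of these genes change between tissues. Of the 54 exons with enough reads in a tissue, 37 had a mean PSI above 0.9 in every such tissue and 1 a mean below 0.1, a 127-bp exon of Pkp3. The other 16 lay between these limits, and 10 of them, and 10 of the 37, had a length divisible by 3. All events were fitted with a logistic model whose spread between libraries is estimated from the data (quasi-binomial), and an event was called when the adjusted p of its F test was under 0.05 and the largest difference between tissue means (ΔPSI) at least 0.1. It called 3629 of 47963 events (7.57%) and 13 of 48 events of the members, which lie in 12 of 28 exons. Differences of at least 0.5 were found in 2.74% of all events and in 7 of the 48. The median ΔPSI was 0.0145 over all events and 0.0466 over those of the members. The 13 called events belong to Ctnnd1 (6), Pkp4 (5) and Arvcf (2). With limma on the log2 ratio of inclusion to skipping reads 8 were called, without the 63-bp and 87-bp exons of Ctnnd1 and without 3 events of Pkp4. The plot of inclusion by tissue shows the exons whose mean PSI differed by at least 0.2.

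**Figure D2:**
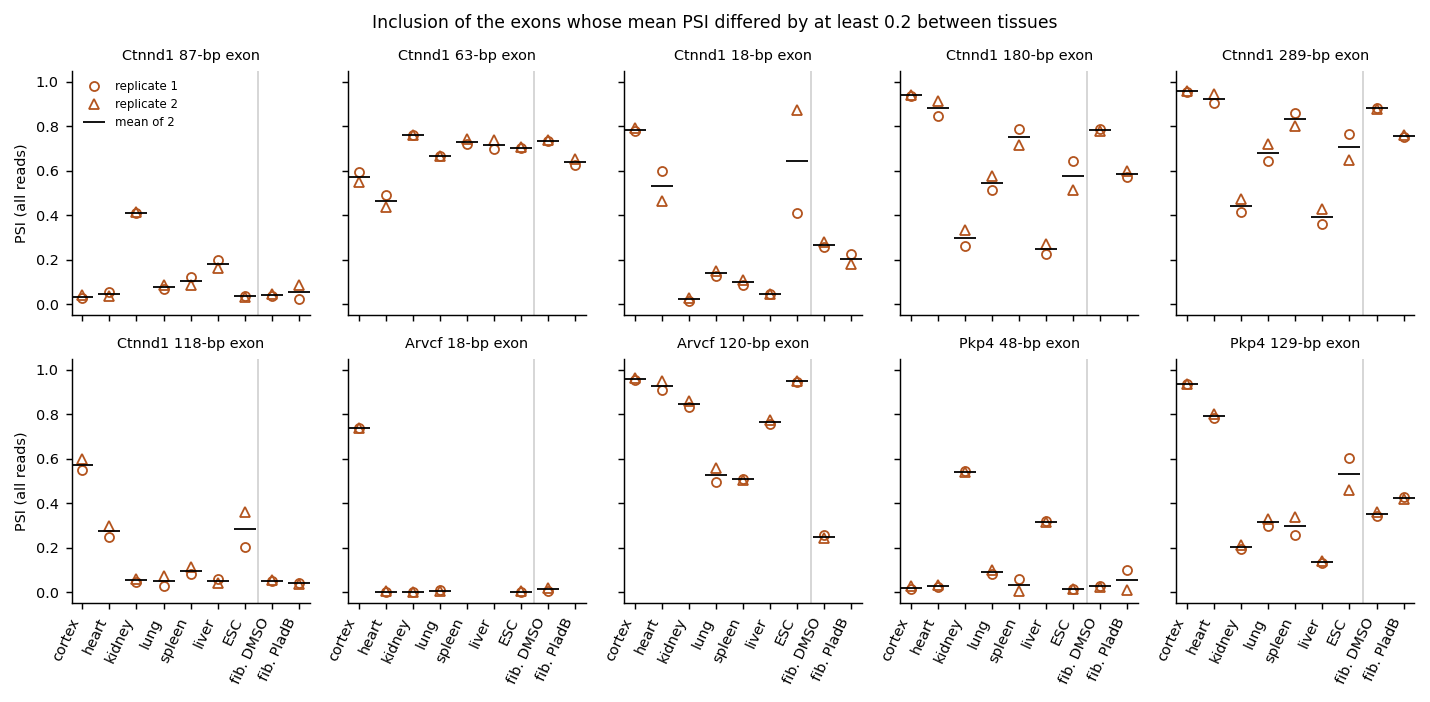
PSI from all reads (0 to 1) of 10 exons of Ctnnd1, Arvcf and Pkp4 in the 7 tissues and in fibroblasts treated with DMSO or pladienolide B (PladB), with both libraries as points and their mean as a line, where both had at least 20 junction reads. Cortex was high for the 18-bp exons of Ctnnd1 and Arvcf and the 129-bp exon of Pkp4, and kidney and liver were high for the 87-bp exon of Ctnnd1 and the 48-bp exon of Pkp4.

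Ctnnd1 lies on the minus strand of chromosome 2 (chr2:84587096-84658977, build mm10/GRCm38), and 8 of the 13 exons described singly are its own. In transcript order these are exons of 118 bp, 289 or 180 bp, and 72 bp near the 5′ end, and exons of 18 bp, 88 bp, 63 bp and 87 bp further on. The 18-bp, 63-bp and 87-bp exons have the lengths and the order of the exons known as C, A and B. All 3 have a length divisible by 3.

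The 18-bp exon of Ctnnd1 (chr2:84612532-84612549) was included most in cortex, with a PSI of 0.778 and 0.792. It was 0.601 and 0.465 in heart, 0.410 and 0.874 in ESC, 0.128 and 0.149 in lung, 0.0874 and 0.110 in spleen, 0.0443 and 0.0456 in liver, and 0.0165 and 0.0280 in kidney. The tissues fell into a high set of cortex, heart and ESC and a low set of the other 4, with no overlap between the sets. The ΔPSI between cortex and kidney was 0.76 (adjusted p = 0.00163, and 0.76 without both ESC libraries). The 2 ESC clones differed by 0.464 on this exon, the largest gap between replicates among the described exons, and the dispersion of the fit was 57.5. In the clone of lower inclusion the epithelial splicing regulator Esrp1 measured 4.78 TPM against 0.332 TPM in the other, while Esrp2 was 7.20 and 8.26 TPM. Of the other genes in a list of 12 splicing regulators, Mbnl2 measured 97.4 and 14.3 TPM in the same order, Ptbp2 41.6 and 24.8, and Nova1 1.60 and 3.37. Their part in the difference was not tested.

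The 87-bp exon of Ctnnd1 (chr2:84603188-84603274) was included most in kidney (PSI 0.408 and 0.413), followed by liver (0.198 and 0.162). It measured 0.122 and 0.0883 in spleen, 0.0673 and 0.0866 in lung, 0.0566 and 0.0370 in heart, 0.0363 and 0.0347 in ESC, and 0.0273 and 0.0418 in cortex. Kidney stood apart from every other tissue (ΔPSI 0.38 from cortex, adjusted p = 2.76e-07). The 63-bp exon (chr2:84605184-84605246) was the least tissue-dependent of the 3, with 0.594 and 0.549 in cortex, 0.490 and 0.438 in heart, and 0.667 to 0.761 in the libraries of the other 5 tissues (ΔPSI 0.30 between kidney and heart, adjusted p = 5.7e-05).

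The 5′ exons of Ctnnd1 also differed between tissues. The 289-bp exon (chr2:84624270-84624558) had a PSI of 0.956 and 0.957 in cortex, 0.903 and 0.946 in heart, 0.858 and 0.803 in spleen, 0.767 and 0.648 in ESC, 0.644 and 0.718 in lung, 0.414 and 0.474 in kidney, and 0.362 and 0.427 in liver. Kidney and liver skipped it most, and the ΔPSI between cortex and liver was 0.56 (adjusted p = 5.65e-05). The 180-bp form shares the donor site and the skipping reads of the 289-bp exon and is no independent measurement. It ran from 0.936 and 0.941 in cortex to 0.226 and 0.270 in liver (ΔPSI 0.69, adjusted p = 2.34e-05). The 118-bp exon just upstream (chr2:84626020-84626137) had a PSI of 0.547 and 0.598 in cortex, 0.249 and 0.297 in heart, 0.203 and 0.361 in ESC, and at most 0.111 in any library of the other tissues (ΔPSI 0.52, adjusted p = 0.000186). This event covers only transcripts joined to the 289-bp exon. Its skipping reads are inclusion reads of that exon, so the events are not independent. The skipping junction of the 289-bp and 180-bp events passes over the 118-bp exon as well.

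Arvcf (chr16:18348182-18407076) had 2 exons that changed. The first, of 18 bp (chr16:18400781-18400798), was included in cortex alone among the tissues with enough reads, with 241 inclusion and 69 skipping reads in one library and 229 and 66 in the other, a PSI of 0.740 and 0.739. Its PSI was at most 0.00849 in heart, kidney, lung and ESC, where a library with 0 inclusion reads still allows up to 0.00809 in heart, 0.00273 in kidney and 0.0027 in ESC. Spleen and liver had too few reads. The ΔPSI between cortex and kidney was 0.74 (adjusted p = 3.11e-07). This exon and the 18-bp exon of Ctnnd1 are of the same length and both highest in cortex, but in heart the Ctnnd1 exon was included in about 0.53 of transcripts (mean of 2) and the Arvcf exon hardly at all.

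The second Arvcf exon, of 120 bp (chr16:18405102-18405221), was near full inclusion in cortex (0.954 and 0.961), ESC (0.947 and 0.947) and heart (0.907 and 0.948). It fell stepwise to 0.833 and 0.861 in kidney, 0.754 and 0.776 in liver, 0.510 and 0.504 in spleen, and 0.494 and 0.560 in lung. The ΔPSI between cortex and spleen was 0.45 (adjusted p = 2.26e-07). DMSO fibroblasts lay below every tissue, at 0.256 and 0.243, a value set beside the tissues without a test.

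Pkp4 (chr2:59160850-59355205, plus strand) had 2 exons with changes over 0.5. The 129-bp exon near its 3′ end (chr2:59350494-59350622) was included in 0.937 and 0.937 of cortex transcripts, 0.783 and 0.803 in heart, 0.602 and 0.460 in ESC, 0.298 and 0.330 in lung, 0.255 and 0.339 in spleen, 0.194 and 0.214 in kidney, and 0.133 and 0.140 in liver. Cortex and heart stood above all others, as for the 289-bp exon of Ctnnd1, and the ΔPSI between cortex and liver was 0.80 (adjusted p = 1.56e-08), the largest of the members. A second event of the same exon, with a more distant downstream exon, was also called (ΔPSI 0.35 between heart and kidney, adjusted p = 5.27e-06).

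The 48-bp exon of Pkp4 (chr2:59314356-59314403) had the opposite distribution. Kidney measured 0.543 and 0.542 and liver 0.320 and 0.315, while lung was 0.0818 and 0.101 and the libraries of cortex, heart, spleen and ESC lay between 0.00593 and 0.0592. Kidney and liver, the 2 organs with the highest inclusion of the 87-bp exon of Ctnnd1, were also the highest for this exon (ΔPSI 0.53 between kidney and ESC, adjusted p = 5.29e-09). The smaller Pkp4 calls were a 113-bp exon, from 0.947 in heart to 0.824 in kidney (adjusted p = 0.00643), and a 74-bp exon, from 0.951 in lung to 0.835 in ESC (adjusted p = 0.0263), and the latter was lost without both ESC libraries (ΔPSI 0.03). Its call was also lost when any 1 library of cortex, heart, kidney, lung or liver, or the first ESC clone, was left out (adjusted p from 0.0551 to 0.0969).

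Ctnnd2, Pkp2 and Pkp3 had no called exon. Ctnnd2 exons could mostly be measured in cortex, where 10 of 11 were included almost fully. Chosen after its values were seen, a 75-bp exon of Ctnnd2 had a PSI of 0.315 and 0.322 in cortex, 0.257 and 0.174 in lung, and 0.181 and 0.225 in ESC, with 44 to 101 reads in the last 4 libraries, and its ΔPSI of 0.12 did not pass (adjusted p = 0.368). Counted with another upstream exon, the same exon measured 1.00 and 0.943 in cortex. Pkp2 and Pkp3 had 2 and 3 exons with enough reads, each near full inclusion or near 0.

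Splicing regulators known to act on such exons were read from a list of 12. In cortex 8 were called higher, among them Rbfox1 (244 and 245 TPM against 27.7 and 27.9 in heart and at most 1.32 elsewhere) and Srrm4 (25.8 and 25.6 TPM against 13.2 and 11.9 in heart), and 3 lower, Ptbp1, Esrp1 and Esrp2. In kidney Esrp1 (12.6 and 12.1 TPM) and Esrp2 (38.9 and 37.7 TPM) were called higher. In liver Esrp2 was higher (55.3 and 53.2 TPM) while Esrp1 was at most 0.0546 TPM. The counts of the list were 8 higher and 3 lower in cortex and 2 and 6 in kidney, the same with centred libraries, whereas in liver 1 and 9 became 1 and 3. Lung held 13.7 and 14.1 TPM of Esrp1 and 28.0 and 30.4 TPM of Esrp2, and there the PSI of the 87-bp exon of Ctnnd1 and the 48-bp exon of Pkp4 was at most 0.101. The part of these regulators in the inclusion of the exons was not tested, and bulk levels do not show which cells hold them.

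The third question was whether the alleles of one cell splice these exons differently. The C57BL/6J allele was compared with the SPRET/EiJ allele in each tissue by the same model, with ΔPSI given as C57BL/6J minus SPRET/EiJ. A call also needed the PSI from the reads of both alleles to lie within 0.1 of the PSI from all reads. Of all events 0.0477% were called in ESC, 0.78% in liver, 1.23% in spleen, 1.75% in lung, 1.52% in kidney, 1.44% in heart and 1.9% in cortex. Of the members' events 1 of 39 was called in ESC, 2 of 22 in liver, 2 of 26 in lung, 1 of 13 in spleen, 1 of 24 in heart, 3 of 37 in kidney and 3 of 35 in cortex, 13 calls in all. With the library as a block, which uses that both alleles were sequenced together, 23 were called. The calls fell on Pkp4 and Ctnnd1, and 8 of the 13 on a single Pkp4 exon. With limma on the log2 ratio of inclusion to skipping reads 7 events were called, 6 of them among the 13, all in Pkp4, and none in cortex or heart, where it called 0 of all events.

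**Figure D3:**
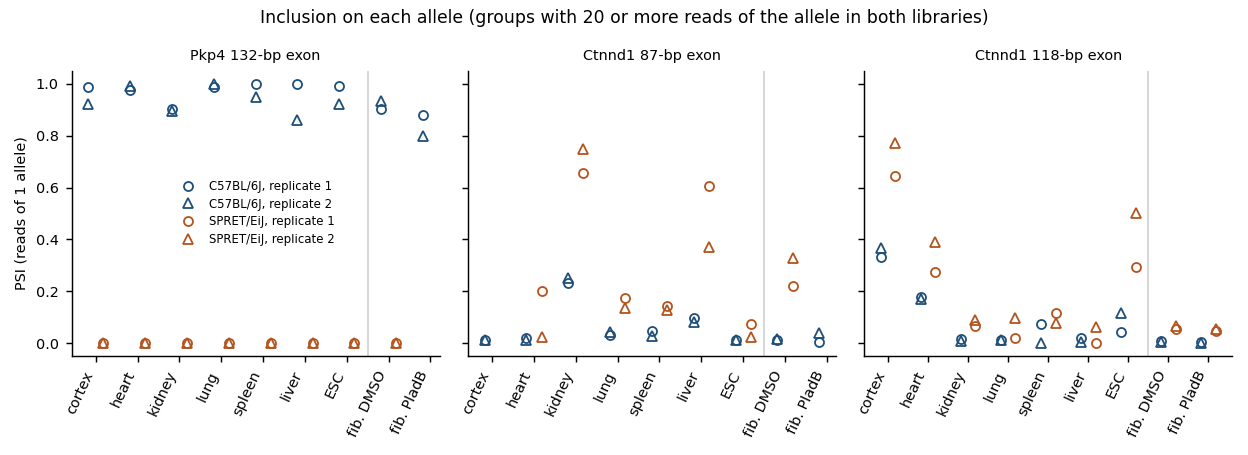
PSI (0 to 1) computed from the reads of 1 allele for the 132-bp exon of Pkp4 and the 87-bp and 118-bp exons of Ctnnd1, in each tissue and in fibroblasts treated with DMSO or pladienolide B (PladB), with each library as a point and C57BL/6J beside SPRET/EiJ. For the Pkp4 exon the C57BL/6J points lay at 0.80 or above and the SPRET/EiJ points at 0.003 or below, with no overlap where both alleles are shown (SPRET/EiJ had too few reads after pladienolide B).

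The 132-bp exon of Pkp4 (chr2:59305066-59305197) was included by one allele and skipped by the other. From all reads it lay between inclusion and skipping in every tissue, with a PSI of 0.541 and 0.553 in cortex and between 0.424 and 0.562 in the other tissue libraries. On the C57BL/6J allele the PSI was 0.992 and 0.923 in ESC, 1.00 and 0.862 in liver, 0.987 and 1.00 in lung, 1.00 and 0.948 in spleen, 0.977 and 0.990 in heart, 0.989 and 0.922 in cortex, and 0.902 and 0.895 in kidney. On the SPRET/EiJ allele 11 of the 14 libraries held 0 inclusion reads beside 51 to 1058 skipping reads, and the other 3 held 1 or 2 inclusion reads. The highest PSI of this allele was 0.0029, and the 11 libraries at 0 allow values of 0.00142 to 0.0303. No library of one allele came near a library of the other.

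The ΔPSI of this exon was 0.96 in ESC (adjusted p = 0.00504), 0.93 in liver (0.0163), 0.99 in lung (5.72e-06), 0.97 in spleen (0.00184), 0.98 in heart (4.44e-05), 0.95 in cortex (1.28e-06) and 0.90 in kidney (6.31e-05). The call in liver was lost without the first SPRET/EiJ library (adjusted p = 0.0590). Under limma on the log2 ratio of reads the adjusted p was 0.0671 in cortex and 0.0631 in heart, and it stayed under 0.05 in the other 5 tissues. In ESC it was the only call among the members and 1 of 15 among all 31421 events. The interaction of allele and tissue did not pass (largest gap 0.10, adjusted p = 1), and the difference was present in DMSO fibroblasts too, at 0.92 (adjusted p = 1.06e-06), with 0.902 and 0.931 on C57BL/6J and 0 of 125 and 0 of 155 reads on SPRET/EiJ. After pladienolide B, C57BL/6J measured 0.879 and 0.800, and SPRET/EiJ held 0 inclusion reads of 18 and 27, where one library is under the minimum of 20 reads and no test was made.

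The reads of both forms were counted by allele over the tissue libraries. Of the inclusion reads 96.7% to 97.9% were assigned to an allele, and 99.9% to 100% of those to C57BL/6J. Of the skipping reads 89.5% to 95.8% were assigned, and 0.577% to 11.7% of those to C57BL/6J. Summed per length over both forms, C57BL/6J held 47.8% to 58.9% of the reads, with the lowest share in spleen. In the other exons of Pkp4 it held 48.9% to 60.0% in the same tissues except spleen, which had no such value. The length of 132 bp is divisible by 3.

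Other Pkp4 events around this exon repeat the same reads. In cortex a 113-bp exon upstream had a ΔPSI of -0.30 in the event that joins onto the 132-bp exon (C57BL/6J 0.711 and 0.697, SPRET/EiJ 1.00 and 1.00, adjusted p = 0.00635). Its skipping junction ends in the 132-bp exon, which SPRET/EiJ transcripts do not hold, and all of its 88 skipping reads were of C57BL/6J. In kidney the 132-bp exon was called once more with another upstream exon (ΔPSI 0.99, adjusted p = 0.000379). With the library as a block, 7 further calls in cortex, kidney, lung, liver and ESC fell on such upstream events of Pkp4, with ΔPSI of -0.30 to 0.18, and so did 1 in DMSO fibroblasts (113-bp exon, ΔPSI -0.14, adjusted p = 0.0308). The 63-bp exon of Ctnnd1 in lung was called with the block as well (ΔPSI -0.11, adjusted p = 0.0289).

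The 87-bp exon of Ctnnd1 was included more on the SPRET/EiJ allele. In kidney its PSI was 0.232 and 0.250 on C57BL/6J and 0.657 and 0.749 on SPRET/EiJ (ΔPSI -0.46, adjusted p = 0.00322). In liver it was 0.0983 and 0.0837 against 0.604 and 0.371 (-0.40, adjusted p = 0.0438), and in lung 0.0318 and 0.0435 against 0.176 and 0.137 (-0.12, adjusted p = 0.0236). The alleles did not overlap in these tissues. The lung and liver calls were lost when single libraries of an allele were left out, with ΔPSI of -0.10 to -0.14 in lung and -0.28 to -0.51 in liver.

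The reads behind this exon were uneven between alleles. Of its assigned skipping reads 91.7% to 93.8% were of C57BL/6J in kidney, lung and liver, and 54.1% to 65.6% of its inclusion reads were assigned to any allele, against 88.3% to 91.3% of its skipping reads. Per length C57BL/6J held 81.4% to 90.8% of the event's reads, whereas in another exon of Ctnnd1 it held 48.3% to 55.4% in the same libraries. The share of reads assigned to each allele therefore moved with this result, and its part in the ΔPSI was not tested.

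The 118-bp exon of Ctnnd1 showed the same direction in cortex. There the PSI was 0.331 and 0.366 on C57BL/6J and 0.644 and 0.772 on SPRET/EiJ (ΔPSI -0.36, adjusted p = 0.00669). In heart it was 0.177 and 0.170 against 0.274 and 0.392 (-0.16), and in ESC 0.0432 and 0.116 against 0.294 and 0.501 (-0.32), and these 2 passed only with the library as a block (adjusted p = 0.0193 and 0.000194). The call in cortex was lost when either C57BL/6J library was left out (ΔPSI -0.342 and -0.377). In the other 4 tissues the exon was rare on both alleles. In cortex 60.9% of inclusion and 78.8% of skipping reads were assigned, and C57BL/6J held 37.9% and 73.1% of those. Per length it held 55.3% of the event's reads, against 67.6% and 74.6% in another exon of Ctnnd1. The part of the read assignment in this ΔPSI was not tested.

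Whether an allelic difference changed with the tissue was tested by the interaction of allele and tissue, which called 6 of 32198 events (0.0186%) and 0 of 36 of the members (495 events at an unadjusted p under 0.05). With the library as a block it called 2 events of the members. The limit on the difference to all reads was not applied to the interaction. One was the 129-bp exon of Pkp4, where ΔPSI ran from 0.12 in lung to -0.12 in ESC (adjusted p = 0.0187). In both of these tissues the means of both its alleles lay more than 0.1 below the PSI from all reads, outside that limit. The other was the 18-bp exon of Ctnnd1, from 0.08 in lung to -0.13 in cortex (adjusted p = 0.0119). For the 180-bp form of Ctnnd1 almost no inclusion read of a tissue library was assigned to an allele, and its allelic PSI is not informative.

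Read shares per gene gave the balance of the alleles in exons with little skipping. In the tissues with such exons and enough reads, the share of C57BL/6J was 48.9% to 60.0% for Pkp4, 40.9% to 61.8% for Arvcf and 40.2% to 53.4% for Pkp2. Ctnnd1 stood out in cortex, with 67.6% and 74.6% of 139 and 114 reads in 1 exon, where 95% of genes lay below 62.5%. In DMSO fibroblasts Ctnnd1 had 17.8% and 18.6% of C57BL/6J reads (2 exons, median 1818 and 1765 reads), where 5% of genes lay below 29.4%, although its 63-bp exon held 41.1% and its 87-bp exon 90.1% in the same libraries. Pkp2 in DMSO fibroblasts had 94.4% and 96.2% of 126 and 130 reads in 1 exon, where 95% of genes lay below 73.2%, at a level of 3.89 and 3.66 TPM.

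The fourth question was what inhibition of SF3B does to these genes. After 4 h of pladienolide B, 7.57% of 54535 events were called lower in inclusion and 0.123% higher, with the adjusted p under 0.05 and a ΔPSI of at least 0.1. Of the 43 events of the members 6 were lower and 0 higher, all in Ctnnd1, in 5 exons. Arvcf and Pkp4 exons that changed between tissues were either too thinly covered or did not pass.

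**Figure D4:**
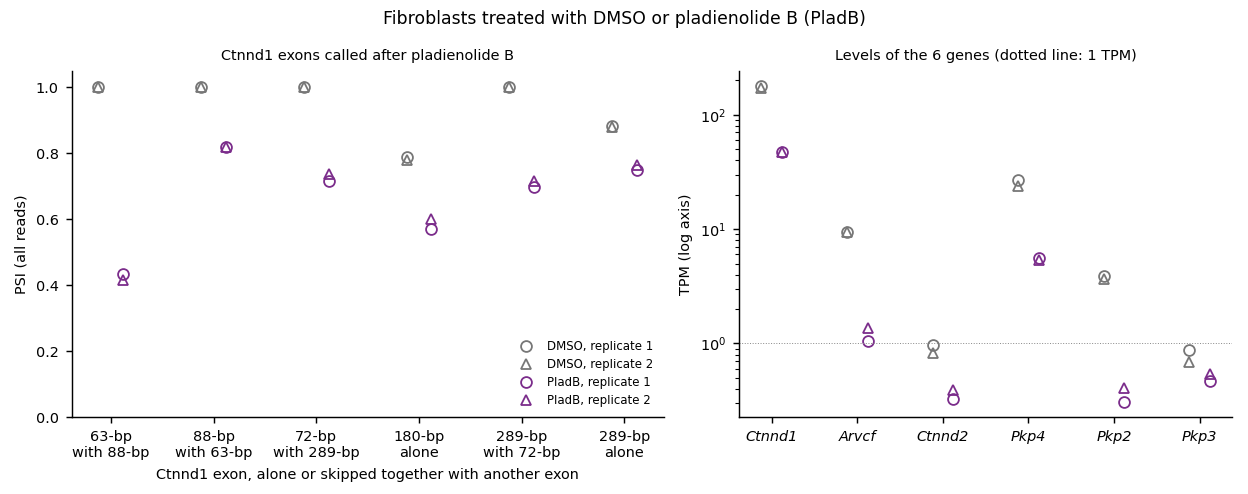
Left, PSI from all reads (0 to 1) of the 6 Ctnnd1 events called after pladienolide B (PladB), with both libraries of each treatment as points and each exon marked as skipped alone or together with another of the called exons. The skipping junctions of the 72-bp, 180-bp and 289-bp exons also passed over the 118-bp exon. Right, level of each gene in TPM (log axis) in the same libraries. In every event both PladB libraries lay below both DMSO libraries, and so they did for all 6 genes.

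In DMSO fibroblasts a pair of junctions that skip 2 of the called exons at once had 0 reads in both libraries. After pladienolide B the junction over the 63-bp and 88-bp exons had 92 and 104 reads. With it the 88-bp exon (chr2:84608329-84608416) fell from a PSI of 1.00 and 1.00, at least 0.998 with 0 skipping reads, to 0.820 and 0.817 (ΔPSI -0.18, adjusted p = 6.58e-07). The event of the 63-bp exon with the same junction fell to 0.434 and 0.416 (-0.57, adjusted p = 2.36e-07). That event counted 100 and 105 inclusion reads, while the event of the 63-bp exon joined to the 88-bp exon counted 571 and 603 in the same libraries, so its PSI covers only part of the transcripts that hold the exon. The 88-bp exon, with a length not divisible by 3, was above 0.99 in the 3 tissues with enough reads.

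The other junction, over the 72-bp and 289-bp exons, had 133 and 141 reads after pladienolide B. It also passed over the 118-bp exon, as did the junction that skips the 289-bp exon but not the 72-bp exon. The 72-bp exon (chr2:84622011-84622082) fell from 1.00 and 1.00, at least 0.998, to 0.717 and 0.738 (ΔPSI -0.27, adjusted p = 1.94e-07), and the 289-bp exon counted with the same junction to 0.699 and 0.717 (-0.29, adjusted p = 1.6e-07). Skipped without the 72-bp exon, the 289-bp exon fell from 0.882 and 0.880 to 0.750 and 0.763 (-0.12, adjusted p = 0.000266) and its 180-bp form from 0.787 and 0.779 to 0.571 and 0.600 (-0.20, adjusted p = 0.000134). The 6 calls thus rest on 3 skipping junctions. With limma on the log2 ratio of reads the last 2 were lost and the other 4 remained.

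The 18-bp exon of Ctnnd1 measured 0.256 and 0.279 with DMSO and 0.228 and 0.183 with pladienolide B, and the groups did not overlap but the difference did not pass (ΔPSI -0.06, adjusted p = 0.0835). The 129-bp exon of Pkp4 measured 0.343 and 0.360 against 0.429 and 0.421 (ΔPSI 0.07, adjusted p = 0.394). With the library number as a block 2 more events were called, both in Pkp4, a 137-bp exon and the 74-bp exon (ΔPSI -0.11 and -0.12). The 1 retained intron of the members with enough reads, between the 88-bp exon of Ctnnd1 and the exon before it (chr2:84608417-84608959), was retained in 0.00242 and 0.0039 of transcripts with DMSO and in 0.0749 and 0.106 after pladienolide B. Its adjusted p was 1.68e-12, but the difference of 0.09 stayed under the limit of 0.1. With both limits 38.2% of 1802 introns were called.

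Levels of the members were lower after pladienolide B. Ctnnd1 went from 177 and 172 TPM to 47.0 and 47.2, Pkp4 from 26.9 and 23.9 to 5.56 and 5.39, Arvcf from 9.50 and 9.47 to 1.04 and 1.36, and Pkp2 from 3.89 and 3.66 to 0.310 and 0.405. Neither Ctnnd2 (0.975 and 0.823 to 0.329 and 0.393) nor Pkp3 (0.883 and 0.695 to 0.466 and 0.540) reached 1 TPM and neither was tested. The fall on the log2 scale was 3.09 ± 0.12 for Pkp2, 2.89 ± 0.14 for Arvcf, 2.19 ± 0.08 for Pkp4 and 1.89 ± 0.05 for Ctnnd1 (adjusted p of limma 6.62e-05, 0.000103, 5.18e-05 and 2.81e-05). Of all 13577 genes tested 72.9% were called lower and 14.8% higher, and their median fell by 1.15. With libraries centred on their median gene 38.9% were lower and 48.4% higher, and the 4 members still fell, by 1.75, 1.55, 0.85 and 0.55. Of the cadherins and catenins tested, 5 of 7 were lower and Cdh1 was higher as deposited, but with centred libraries 6 were higher and Jup alone was lower.

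Allelic differences in fibroblasts were called for 2.1% of events with DMSO and 3 of 22 of the members, and for 1.8% with pladienolide B and 1 of 23. With DMSO these were the 132-bp exon of Pkp4 given above, and 2 exons of Ctnnd1. The 87-bp exon had a PSI of 0.0113 and 0.0181 on C57BL/6J and 0.222 and 0.329 on SPRET/EiJ (ΔPSI -0.26, adjusted p = 0.000101), with 92.5% of its skipping reads of C57BL/6J against 17.8% and 18.6% of reads in other exons. The 63-bp exon had 0.628 and 0.586 against 0.708 and 0.735 (-0.11, adjusted p = 0.0264), and this call was lost without the second library of either allele. After pladienolide B, C57BL/6J held 30.5% and 30.2% of the reads in 5 exons of Ctnnd1 with little skipping. The junction that skips the 63-bp and 88-bp exons together had 12 and 7 reads of C57BL/6J and 48 and 67 of SPRET/EiJ.

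In the event of the 63-bp exon this junction gave a PSI of 0.739 and 0.801 on C57BL/6J and 0.340 and 0.275 on SPRET/EiJ (ΔPSI 0.46, adjusted p = 0.00921), and in that of the 88-bp exon 0.880 and 0.929 against 0.727 and 0.718 (0.18, adjusted p = 0.0747, and 0.0475 with the library as a block). The call was lost without either C57BL/6J library (ΔPSI 0.49 and 0.43), with a minimum of 50 reads, and under limma on the log2 ratio of reads, by which only the Pkp4 exon was called with DMSO. The interaction of allele and treatment called 0 of 13585 events and 0 of the 8 of the members (447 of all events at an unadjusted p under 0.05). The event of the 63-bp exon with this junction was not among those tested.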

How the data were processed

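Strand-specific mRNA libraries of F1 mice, F1 ESC and an F1 fibroblast line were analysed, 18 libraries in 9 groups of 2. Per the study's methods, HISAT2 2.0.1 aligned the reads without soft clipping to the mm10/GRCm38 genome and to one of SPRET/EiJ, and the alignment with fewer edits set the allele of a read. Reads with as many edits on both carry no allele. The authors counted inclusion and skipping junction reads per event with rMATS and deposited them as lists of 2 libraries, beside effective length scores of both forms that the authors' tables also hold. The deposited TPM values were computed by the authors from featureCounts on Ensembl 74 genes, with reads shared between overlapping genes split as fractions. Columns of the deposited tables with p-values, FDR and inclusion differences hold the authors' own comparisons and were not used. There were 0 columns of other samples.

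PSI was the share of inclusion reads per effective length. Autosomal events with at least 20 reads in each library (on each allele for allelic tests) entered a quasi-binomial logistic model, whose Pearson dispersion was moderated with limma 3.58.1 squeezeVar along read depth and kept at 1 or more, followed by an F test and Benjamini-Hochberg adjustment over all events of a comparison. Calls needed an adjusted p under 0.05 and a PSI difference of at least 0.1, and allelic calls a PSI from both alleles' reads within 0.1 of that from all reads. The prior of the dispersion came from events with at least 5 expected reads of the rarer form in each informative library. This rule replaced a first one (10 reads of the rarer form in sum) after numbers of calls had been seen, and the first is kept as an alternative. Levels were tested with limma on log2(TPM + 0.1) over genes with at least 1 TPM in 2 libraries. Python 3.11.15 and R 4.3.3 were used, and the tests were checked on simulated data.

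Exons were described singly where the PSI differed between tissues by at least 0.2 or where an allelic or treatment test called them, with the event of most reads standing for an exon, and the 2 genes of highest r were named per member. 1 further list of partner genes is not reported here. The members, lists and tests were chosen with earlier results of these data known. With 2 libraries per group, p-values measure only the spread between these libraries, which for fibroblasts may be technical. A count of 0 allows up to 3 reads, and this limit covers counting error only. Allele-assigned junction reads ranged from 10338947 to 46793808 per tissue library and allele and from 27056558 to 48555783 in fibroblasts. Both alleles of a library share its RNA and sequencing, and their deviations from the group means correlated at 0.0438 to 0.424 over the 9 groups, so the library as a block was an alternative for allelic tests. The first and second entries of the read lists followed replicates 1 and 2 of the TPM table, with r of 0.711 to 0.980 between log2 ratios of replicates.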

Additional observations from a re-analysis of the deposited data

Results flagged for a closer look

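The allelic difference in PSI (C57BL/6J minus SPRET/EiJ) of the 129-bp exon of Pkp4 had opposite signs in lung and ESC, with both libraries of each tissue on the same side. In lung the exon measured 0.228 and 0.170 on C57BL/6J and 0.0861 and 0.0800 on SPRET/EiJ, and in ESC 0.379 and 0.235 against 0.590 and 0.259. The differences lay 0.233 apart, with an adjusted p of 1 for the interaction of allele and tissue and of 0.0187 with the library as a block. In lung and in ESC the means of both alleles lay more than 0.1 below the PSI from all reads. The exon thus failed the limit for allelic calls there, which was not applied to the interaction.

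For the 289-bp exon of Ctnnd1, skipped without the 72-bp exon, cortex and lung had opposite signs. The PSI was 0.938 and 0.868 on C57BL/6J and 0.765 and 0.758 on SPRET/EiJ in cortex, and 0.431 and 0.476 against 0.528 and 0.616 in lung. The differences lay 0.260 apart, and neither the interaction (adjusted p = 1) nor the same test with the library as a block (adjusted p = 0.826) passed. Groups of 2 libraries were too small to look for libraries that stand apart.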

How the results depend on the processing

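Of the values recomputed under every alternative, 144 of the counts that answer a comparison kept their size, 6 rose and 7 fell by over 1.5 times, while of the values for single exons and genes 975 kept their direction and call, 64 lost the call and 1 changed sign. That 1 was Pkp4 in liver, at 0.1985 with libraries centred on their median gene. With limma on log2((inclusion + 0.5)/(skipping + 0.5)) the calls on the members fell from 13 to 8 across tissues, from 13 to 7 between alleles in tissues, from 3 to 1 between alleles with DMSO and from 1 to 0 with pladienolide B. Over all events it called 1111 against 3629 across tissues, 143 between alleles in ESC, 37 in liver, 12 in lung, 26 in spleen, 3 in kidney and 0 in both heart and cortex, 10 with DMSO, 46 with pladienolide B and 0 for allele by tissue. The cause was not tested. With the library as a block the allelic calls rose from 13 to 23 and those of allele by tissue from 0 to 2, those with DMSO from 3 to 4, and over all events to 324 in ESC, 369 in liver, 776 in lung, 588 in spleen, 585 in heart, 579 in kidney, 140 for allele by tissue and 2 for allele by treatment. The block took no call from a member, and the calls it added are given with their results above.

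The single allelic call with pladienolide B became 0 with a minimum of 50 reads, and 2 with events near 0 or 1 left out, with the prior from summed reads (chosen after seeing the data) or with the library as a block. With events near 0 or 1 left out, the tests over all events called 80 in ESC, 335 in liver, 672 in lung, 543 in spleen, 567 in heart, 841 in cortex, 814 in kidney, 907 with DMSO, 847 with pladienolide B, 13 for allele by tissue and 1 for allele by treatment. The prior from summed reads called 212 in ESC, 220 in liver, 623 in lung, 527 in spleen, 441 in heart, 66 for allele by tissue and 14 for allele by treatment. Without both ESC libraries, also chosen after seeing the data, the members' calls were 12 across tissues, 12 between alleles, 0 for allele by tissue and 22 for levels, and 17 of all events were called for allele by tissue.

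Leaving out 1 library at a time gave 11 to 13 calls on the members across tissues, 11 to 15 between alleles in tissues, 0 to 0 for allele by tissue and for allele by treatment, 6 to 7 after pladienolide B, 2 to 3 between alleles with DMSO, 0 to 1 with pladienolide B, 0 to 1 for the retained intron (1 without the first pladienolide B library), 23 to 27 for levels across tissues and 4 to 4 after pladienolide B. Over all events it moved the allelic calls to between 16 and 106 in ESC, 33 and 53 in liver, 77 and 261 in lung, 143 and 373 in spleen, 91 and 308 in heart, 20 and 558 in cortex, 151 and 371 in kidney, and 211 and 524 with pladienolide B. An arm then held 1 library, whose spread was taken from the others. Level calls lost at the limit of 1 on the log2 scale with a pseudocount of 1 were Arvcf in kidney (0.97), Ctnnd2 in lung (0.21), Pkp2 in lung (0.93), Ctnnd2 in ESC (0.93) and Pkp3 in ESC (0.66). Pkp2 in cortex came to -0.96 without the first ESC clone and to -0.98 without the first cortex library, and Arvcf in kidney to 0.99 without the second kidney library. The tissue call of the 113-bp exon of Pkp4 was lost without either heart library. That of its 74-bp exon was lost without any 1 of 11 of the 14 tissue libraries.

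The 6 organs came from 2 animals, but the labels do not say which number marks which animal, and deviations of same-numbered libraries correlated at -0.0768 to 0.0551 across tissues and at 0.00471 across treatments, so the numbers were not taken as pairs. With that number as a block the members had 13 calls across tissues, 8 after pladienolide B and 26 and 4 for levels.

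Only reads assigned to an allele enter the allelic results, whose depth is lower than that of all reads. Spleen and liver had too few Arvcf reads at its 18-bp exon, and Ctnnd2, Pkp2 and Pkp3 could be measured in few tissues.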

Other observations

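The 18-bp exon of Arvcf, which no allelic test called, had a PSI of 0.598 and 0.723 on C57BL/6J and 0.800 and 0.851 on SPRET/EiJ in cortex.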
